A study of Mus musculus with 5 samples.

Results

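The nuclear-encoded genes of the mitochondrial respiratory chain were described in sorted mouse regulatory T (Treg) cells. Members were the entries whose symbol begins with Nduf, Uqcr, Atp5, Cox4, Cox5, Cox6, Cox7 or Cox8, or is Sdha, Sdhb, Sdhc or Sdhd, without names holding -ps, and with FPKM of 1 or more in at least 1 library. FPKM are fragments per kilobase of transcript, relative to the mapped fragments of the library. Of 38130 entries, 91 carried such a name and 84 reached the minimum. By the known assignment of their products, 36 belong to complex I, 4 to complex II, 8 to complex III, 13 to complex IV and 15 to complex V (ATP synthase), and 8 are assembly factors or related genes. The members nearest above the minimum were Atp5s, Cox6b2 and Ndufaf6, with highest FPKM of 2.09, 2.16 and 2.39. The nearest below it was Atp5l2, at 0.726. Cox4i1 was not analysed here.

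Treg cells, sorted as CD4+YFP+ from C57BL/6 mice that express a Cre-YFP fusion from Foxp3, gave 5 RNA libraries. All groups, the wild types included, carry this Foxp3-Cre-YFP, which restricts Cre to cells that express Foxp3. Wild type (WT) had 1 library at 21 days and 1 at 6 weeks. Foxp3Cre-YFP/malt1fl/fl mice, with Malt1 floxed on both alleles (KO), had 1 library at 21 days. Foxp3Cre-YFP/malt1fl/C472A mice, with 1 floxed allele and 1 allele carrying the C472A substitution that the labels describe as inhibiting the protease activity of Malt1 in Treg cells (KI), had 2 libraries at 6 weeks. Malt1 encodes a paracaspase of antigen receptor signalling to NF-kB. Whether each library came from its own animal is not stated in the labels, so the p-values reflect only the scatter of these samples, possibly a technical one.

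The respiratory chain moves electrons from NADH, through complex I, and from succinate, through complex II, to ubiquinone, then through complex III to cytochrome c and through complex IV to oxygen. Complexes I, III and IV pump protons across the inner membrane, and complex V uses the gradient to make ATP. A few hydrophobic subunits are encoded in the mitochondrial genome, while the others are encoded in the nucleus and imported. Treg cells are known to rely on oxidative phosphorylation more than conventional effector T cells do, and loss of complex III in Treg cells is known to impair their suppressive function.

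The library set stood apart in ways that bear on every value below. Depth estimated from the authors' error bounds was 24.6 to 28.8 M fragments (M meaning mega) for the WT library of 21 days and both KI libraries, but 6.99 and 7.86 M in the WT library of 6 weeks and in KO. Malt1 itself was at 27.0 scaled FPKM in the WT library of 21 days, 15.2 in that of 6 weeks, 17.6 in KO, and 55.9 and 37.8 in KI, so its level did not separate KO from WT. Foxp3, which defines Treg cells, was present in every library, at 70.7, 39.5, 30.5, 70.1 and 73.6 in the same order, and the 8 Treg markers summed to 1131, 873 and 820, and to 1182 and 1174 in KI. The summed level of 8 myeloid markers was 144.6 in WT at 6 weeks and 31.5 to 60.8 in the others, with all 8 genes highest in WT at 6 weeks. The 5 plasmacytoid dendritic cell markers, 4 of them highest there, summed to 101.3 in that library and to 20.2 to 43.0 elsewhere. Of 6 red cell genes, 5 were highest in WT at 6 weeks, and the sum was 55.8 there and 2.56 to 28.3 elsewhere. The 4 NK cell markers summed to 9.55 and 18.04 in WT at 6 weeks and KO, against 1.86 to 3.53 elsewhere. In KO, of the 2 NK markers kept among the tested genes, 1 was above WT at 21 days and 1 below it. The KO sum therefore did not stand for every NK marker. The 2 CD8 T cell markers summed to 13.2 and 10.1 in WT at 6 weeks and KO, against 5.79 to 8.95 elsewhere. Most members described below were also higher in those 2 libraries than in the other 3, and the Treg sum was lower there. The 5 B cell markers summed to 16.9 and 22.4 in the WT libraries, 8.68 in KO, and 4.18 and 2.98 in KI. The part of these differences in the results was not tested, and in bulk RNA fewer cells of a type and less RNA per cell cannot be told apart.

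Values below are scaled FPKM, that is FPKM divided by 1 factor per library, and differences are in log2 units after 1 is added to each value, a step that shrinks the differences of weakly expressed genes. Folds and counts past a fold are on the same scale. Of the 84 members, 83 passed the filter of a mean scaled FPKM of at least 1 (all but Cox6b2), among 11296 genes tested. Levels differed widely between members, and FPKM are per length. The median over genes of the 5-library mean level was 38.7 for complex I, 43.9 for complex II, 62.4 for complex III, 128 for complex IV and 124 for complex V. The assembly genes were low, with a median of 5.52 scaled FPKM. The most abundant member was Atp5e, the epsilon subunit of ATP synthase, with a mean of 273.2 scaled FPKM. The lowest tested member was Cox6a2, at 1.403.

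Nearly every nuclear-encoded gene of the chain was lower in KI than in WT of the same age and higher in KO than in WT of its age, and most were higher in WT at 6 weeks than in WT at 21 days. In KI at 6 weeks the median difference of the 83 members from WT was -0.50 in replicate 1 and -0.33 in replicate 2, or -0.40 for their mean (SD of the replicate medians 0.123, n = 2). In KO at 21 days the median was 0.41 above WT, and WT at 6 weeks lay 0.32 above WT at 21 days. The medians of all 11296 genes in those comparisons were -0.00448, 0.02 and 0.01. Compared with the WT library of the other age, the medians were near 0: KI lay at -0.18 and 0.03 against WT at 21 days, and KO at 0.07 against WT at 6 weeks. The members were thus high in WT at 6 weeks and KO and low in WT at 21 days and both KI libraries, which is also how depth divides the libraries, so the genotype difference and depth cannot be told apart in either age-matched comparison.

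**Figure D1:**
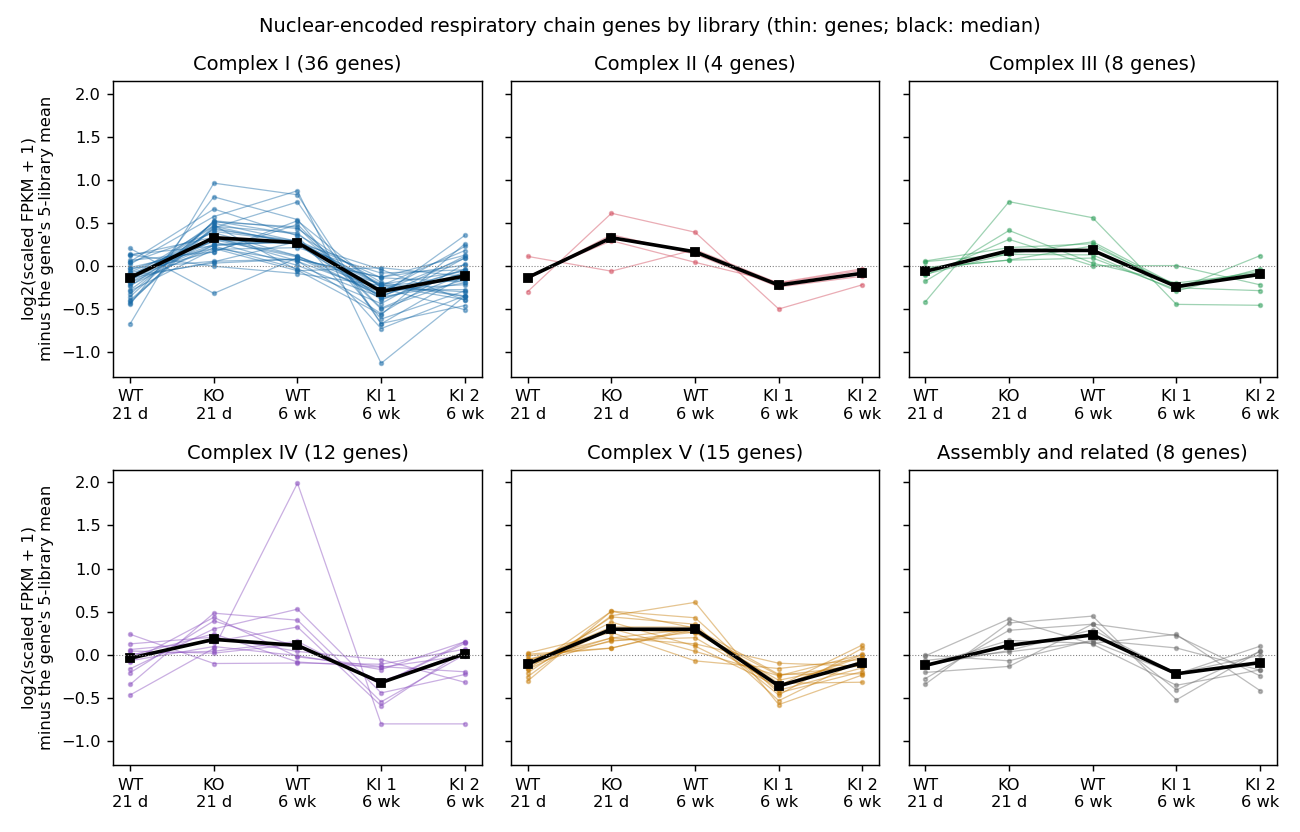
Level of each tested nuclear-encoded respiratory chain gene in each library, as log2(scaled FPKM + 1) minus the gene's own mean over the 5 libraries (y axis), by library (x axis), with 1 panel per complex. Thin lines are genes and the black line with squares is their median, which in all 6 panels is above 0 in KO and in WT at 6 weeks and lowest in KI replicate 1.

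Counts of genes gave the same picture. Of the 83 tested members, 67 were below WT at 6 weeks in both KI libraries, against 38.0% of all tested genes, and 0 were above it in both, against 36.6%. A difference of 1.5-fold or more in both KI libraries was seen for 15 members that were lower, with a background of 7.87%, and for 0 that were higher, with a background of 9.51%. Replicate 1 alone had 29 members at 1.5-fold or more lower, and replicate 2 alone had 20. The share of all tested genes for a single replicate is not given, and 7.87% does not apply to these counts. The 4 members at 2-fold or more lower in both libraries were Cox6a2, Ndufab1, Ndufc1 and Uqcrq, with a background of 2.80%. For 40 members the authors' upper bound in both KI libraries lay under the lower bound in WT, against 13.0% of all tested genes. These bounds cover counting and read assignment within a library, not the spread between samples. Against WT at 21 days the picture was different, with 32 members below it in both KI libraries (background 28.5%) and 0 at 1.5-fold or more lower (background 2.28%).

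No member passed the test of KI against WT at 6 weeks. With limma (two-sided, Benjamini-Hochberg adjusted over 11296 genes) 0 members and 1 gene in all, or 0.00885%, had an adjusted p under 0.05, and the lowest adjusted p of a member was 0.133, for Cox6a2. At an unadjusted p under 0.05, 12 members were lower (background 4.97%) and none was higher: Atp5g1, Atp5j2, Cox6a1, Cox6a2, Ndufa2, Ndufa5, Ndufab1, Ndufc1, Ndufs8, Ndufv1, Ndufv2 and Uqcrq. With the WT library at 21 days as control, 0 members reached an unadjusted p under 0.05. Only the pair of KI libraries gives this fit a spread (1 residual degree of freedom), which stands in for that of the single WT library. In simulated data it called 0% of genes changed 1.5-fold or 2-fold at the adjusted threshold, and 14% of those changed 4-fold, so it had little power for differences of the size of the members' median.

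In KO, 77 of the 83 members were higher than in WT at 21 days, against 51.1% of all tested genes. The exceptions were Atp5s, Cox7c, Ndufa3, Ndufa4, Ndufb4 and Sdha. There were 23 members at 1.5-fold or more higher (background 16.4%) and 0 at 1.5-fold or more lower (background 18.1%). Ndufab1, Ndufv2 and Uqcrq were 2-fold or more higher, which is 3.61% of the tested members and below the background of 6.13%. The authors' bounds did not overlap for 50 higher members, against 24.5% of all tested genes. With 1 library per group, this comparison has no replicate check. Against WT at 6 weeks, 48 members were higher in KO (background 48.2%) and 0 were 1.5-fold or more higher (background 8.52%), so the count of higher members was 48 of 83 with that control.

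Between the WT libraries, 74 members were higher at 6 weeks than at 21 days, with a background of 50.9%. The 9 exceptions were Atp5l, Cox5b, Cox7a2l, Cox7c, Ndufa1, Ndufa3, Ndufb2, Ndufb4 and Ndufs5. There were 17 members at 1.5-fold or more higher, against 11.5% of all tested genes. Taking both age-matched comparisons, which share no library, 65 members were below WT in both KI libraries and above WT in KO, a pattern of 27.9% of all tested genes. In 58 members WT at 6 weeks and KO were both above each of the other 3 libraries, against 23.6% of all tested genes.

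**Figure D2:**
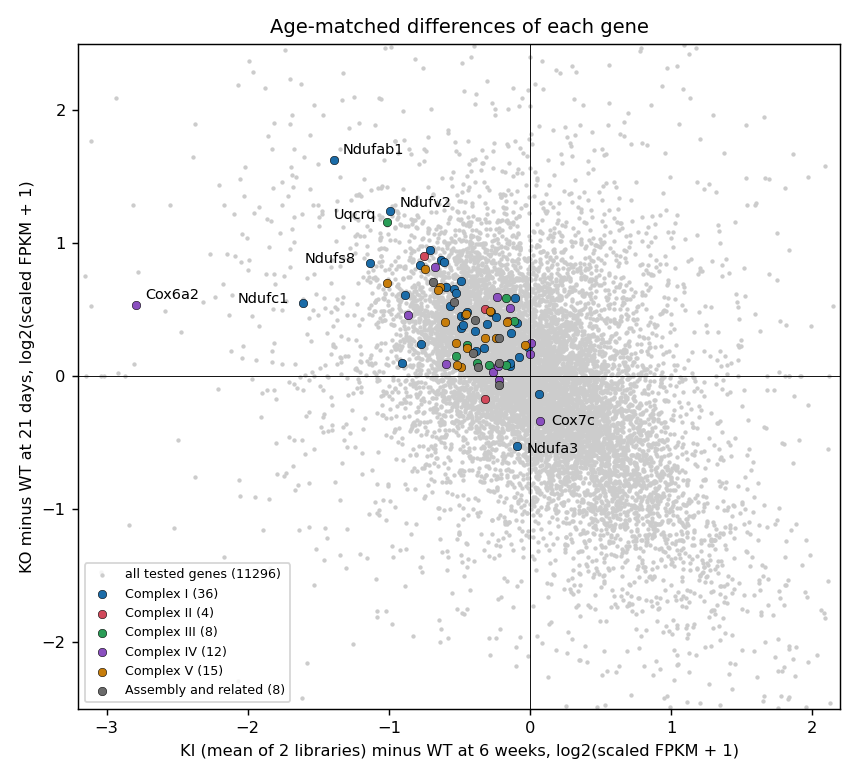
Difference of each gene in KI (mean of 2 libraries) from WT at 6 weeks (x axis) against its difference in KO from WT at 21 days (y axis), both in log2(scaled FPKM + 1). Coloured points are the 83 members by complex and grey points are all 11296 tested genes, of which 226 fall outside the axes; most members lie in the upper left, and Cox7c and Ndufa3 are among the few below 0 for KO.

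Complex I oxidizes NADH in a peripheral arm that carries a flavin and a chain of iron-sulfur clusters. Of its 36 members, 28 were below WT at 6 weeks in both KI libraries and 34 were above WT in KO. The shares of all tested genes were 38.0% and 51.1%. The median differences were -0.48 in KI, 0.46 in KO and 0.42 between the WT libraries. The 7 core subunits, most of which bind the cofactors or form the quinone site, had medians of -0.56 in KI and 0.53 in KO, and the 29 accessory subunits -0.45 and 0.40. Core and accessory subunits were not tested against each other.

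Ndufab1, the mitochondrial acyl carrier protein, which is also a complex I subunit and serves fatty acid and lipoic acid synthesis, showed the widest gap of complex I in KO (chromosome 7, 122085403 to 122101886, GRCm38). It had 13.8 and 40.7 scaled FPKM in WT by age (21 days, then 6 weeks), 44.8 in KO, and 13.8 and 16.1 in KI (mean 14.97 ± 1.63, SD, n = 2). The values of WT at 6 weeks and KO were far above the other 3, and the bounds of those sets did not overlap. KI lay at -1.39 against WT at 6 weeks (SE 0.25, limma adjusted p = 0.379), and KO at 1.63 above WT at 21 days. Against WT at 21 days KI was slightly higher, by 0.11.

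Ndufv2, an iron-sulfur core subunit of the NADH-oxidizing module, had 28.0 and 56.2 in WT by age, 67.7 in KO, and 24.7 and 31.3 in KI (chromosome 17, 66078795 to 66101559). It lay at -0.99 in KI (SE 0.26, limma adjusted p = 0.451) and at 1.25 in KO. Ndufv1, its partner that binds NADH and flavin, had 20.02 and 37.2 in WT by age, 39.7 in KO, and 22.9 and 21.97 in KI. For both genes the 2 shallow libraries exceeded the 3 deep ones. Ndufs8, a core subunit that carries iron-sulfur clusters toward the quinone site, had 16.6, 38.3 and 30.9 in the WT libraries by age and KO, and 13.7 and 20.7 in KI. KI lay at -1.13 for Ndufs8 (SE 0.34, limma adjusted p = 0.460). Its level in KI was also close to that in WT at 21 days.

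Other core subunits differed less. Ndufs1, the largest iron-sulfur subunit, was nearly level, with 14.0 and 16.1 in WT by age, 15.6 in KO, and 13.8 and 16.7 in KI. Ndufs3 and Ndufs7, of the module that reduces ubiquinone, lay at -0.46 and -0.56 in KI and at 0.46 and 0.53 in KO. Among accessory subunits, Ndufc1, a small membrane arm protein, had the lowest difference of complex I in KI, at -1.61 (SE 0.47, limma adjusted p = 0.459). Its levels were 10.1 and 19.1 in WT by age, 15.3 in KO, and 4.01 and 7.61 in KI, and they rest on only about 13.6 to 46.9 estimated fragments per library. Ndufs4, an accessory subunit whose loss in mice gives a Leigh-like disease, had 14.8, 26.1 and 27.6 in WT by age and KO, and 14.9 and 18.7 in KI.

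Several complex I members did not follow the rest. Those not below WT at 6 weeks in both KI libraries were Ndufa1, Ndufa12, Ndufa3, Ndufb3, Ndufb4, Ndufc2, Ndufs1 and Ndufs5. Ndufa3, the complex's most abundant transcript by FPKM, had 227.4 and 211.0 in WT by age, 158.2 in KO, and 155.3 and 252.7 in KI, so the KI libraries fell on either side of WT. Its difference was -0.52 in KO, the lowest of all members. Ndufb4, a membrane arm subunit, had 16.6, 14.1 and 15.1 in WT by age and KO, and 12.8 and 17.2 in KI. Ndufa1, an X-linked membrane arm subunit, lay at -0.01 in KI, and Ndufa7, of the peripheral arm, at -0.14. For Ndufa1 the KI libraries lay on either side of WT, while for Ndufa7 both lay just below it.

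Complex II, succinate dehydrogenase, also works in the citric acid cycle and is the only complex of the chain with no mitochondrially encoded subunit. All 4 of its genes were below WT at 6 weeks in both KI libraries, and 3 were above WT in KO (38.0% and 51.1% of all tested genes). Sdha, the flavoprotein, had 55.9 and 59.1 scaled FPKM in WT by age, 49.6 in KO, and 44.9 and 49.9 in KI. It was lowest in KI replicate 1, and it was the one subunit lower in KO than in WT, by -0.17. Sdhb, the iron-sulfur subunit, had 44.2, 54.1 and 63.4 in WT by age and KO, and 41.3 and 45.2 in KI. The membrane anchors Sdhc and Sdhd lay at -0.75 and -0.15 in KI and at 0.91 and 0.41 in KO. Sdhc had 27.0 and 44.1 in WT by age, 51.6 in KO, and 23.4 and 28.6 in KI, but its direction rests on FPKM: by fragments estimated from the bounds it lay at 0.32 in KI and -0.055 in KO. Median differences of the complex were -0.32 in KI, 0.46 in KO and 0.22 between the WT libraries.

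Complex III passes electrons from ubiquinol to cytochrome c. Of its 8 nuclear-encoded members, 6 were below WT at 6 weeks in both KI libraries and 8 were above WT in KO. The shares of all tested genes were 38.0% and 51.1%. Median differences of the complex were -0.33 in KI and 0.20 in KO. By fragments estimated from the bounds the medians were -0.61 and 0.45. The largest difference was that of Uqcrq, a small subunit that lies beside the quinone-binding cytochrome b (chromosome 11, 53427922 to 53430831). It had 46.5 and 92.3 scaled FPKM in WT by age, 105.2 in KO, and 45.5 and 45.2 in KI (mean 45.3 ± 0.246, SD, n = 2). The libraries fell into 2 levels without overlap of their bounds, with WT at 21 days and both KI libraries at the lower one. KI lay at -1.01 (SE 0.21, limma adjusted p = 0.416), and KO at 1.16. The other members varied less. Uqcrfs1, the Rieske iron-sulfur protein that carries the electron to cytochrome c1, had 51.0, 55.2 and 68.4 in WT by age and KO, and 55.2 and 47.2 in KI. Uqcrc1 and Uqcrc2, the core proteins, lay at -0.37 and -0.29 in KI and at 0.10 and 0.08 in KO. Uqcrh, the hinge protein that aids cytochrome c docking, was the most abundant, with 237.1, 272.6 and 264.3 in WT by age and KO, and 191.0 and 186.6 in KI.

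Complex IV, cytochrome c oxidase, reduces oxygen, and its nuclear-encoded subunits surround a catalytic core made in the mitochondrion. By scaled FPKM it had the smallest median differences of the 5 complexes for the KI mean and between the WT libraries: -0.23 in KI (replicates at -0.43 and -0.12), 0.21 in KO and 0.11 between the WT libraries, over 12 tested members. Of these, 8 were below WT at 6 weeks in both KI libraries and 10 were above WT in KO (38.0% and 51.1% of all tested genes). In KI replicate 1 alone complex IV (-0.43) lay below complex II (-0.39), so this order does not hold in each library. By estimated fragments the medians of complex IV were -0.54 in KI, 0.62 in KO and 0.49 between the WT libraries, and complex II was then nearer to 0 in each. Against WT at 21 days complexes IV and V had the largest medians of the 5 in KI, both -0.13. The complexes were not tested against each other. Cox6a1, the widely expressed form of subunit VIa, had 110.7 and 179.3 scaled FPKM in WT by age, 152.8 in KO, and 91.0 and 105.6 in KI. It lay at -0.86 in KI (SE 0.25, limma adjusted p = 0.459) and at 0.46 in KO. Cox7a2, the widely expressed form of subunit VIIa, had 45.7, 77.3 and 81.9 in WT by age and KO, and 39.6 and 58.4 in KI. Both KI libraries were under WT at 6 weeks for these 2 genes, as was WT at 21 days.

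In several abundant genes of the complex, picked after their values were seen, WT at 6 weeks and KO were not both above the other 3 libraries. Cox6c had 171.3 and 178.4 in WT by age, 192.1 in KO, and 159.4 and 199.7 in KI. Cox5b had 101.9, 96.7 and 121.5 in WT by age and KO, and 92.6 and 101.9 in KI. Cox7c had 151.2, 119.8 and 119.3 in WT by age and KO, and 118.6 and 134.0 in KI, and was highest in WT at 21 days. Ndufa4, once assigned to complex I and now to complex IV, had 130.8, 138.3 and 128.6, and 100.03 and 141.0 in KI. Cox7a2l, placed with complex IV as a supercomplex factor, was the most abundant gene of the complex and lay at -0.23 in KI and 0.08 in KO. Whether its product forms supercomplexes in these C57BL/6 cells was not examined.

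Tissue-restricted isoforms were near the detection limit, with an exception in 1 library. Cox6a2, the form of heart and skeletal muscle, had 0.262 and 5.92 scaled FPKM in WT by age and 0.835 in KO, and was listed at 0 in both KI libraries. Its value in WT at 6 weeks rests on about 22.8 estimated fragments. Siglech, a plasmacytoid dendritic cell gene, was likewise highest in WT at 6 weeks, with 0.294 and 16.8 in WT by age, 1.24 in KO, and 0 and 0.149 in KI. Spib, another gene of those cells, had 7.498 in WT at 6 weeks and 0.116 to 0.898 in the others. Both were picked from the list of 5 after their values were seen, and Ccr9, also on that list, had 8.17 and 7.22 in WT by age, 2.58 in KO, and 0.596 and 1.103 in KI. Their part in the Cox6a2 result was not tested. Cox6b2, the testis form, had at most 1.89, in KO. The isoforms Cox4i2, Cox7a1, Cox7b2, Cox8b, Cox8c and Ndufa4l2 stayed under the minimum, with FPKM of at most 0.198.

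**Figure D3:**
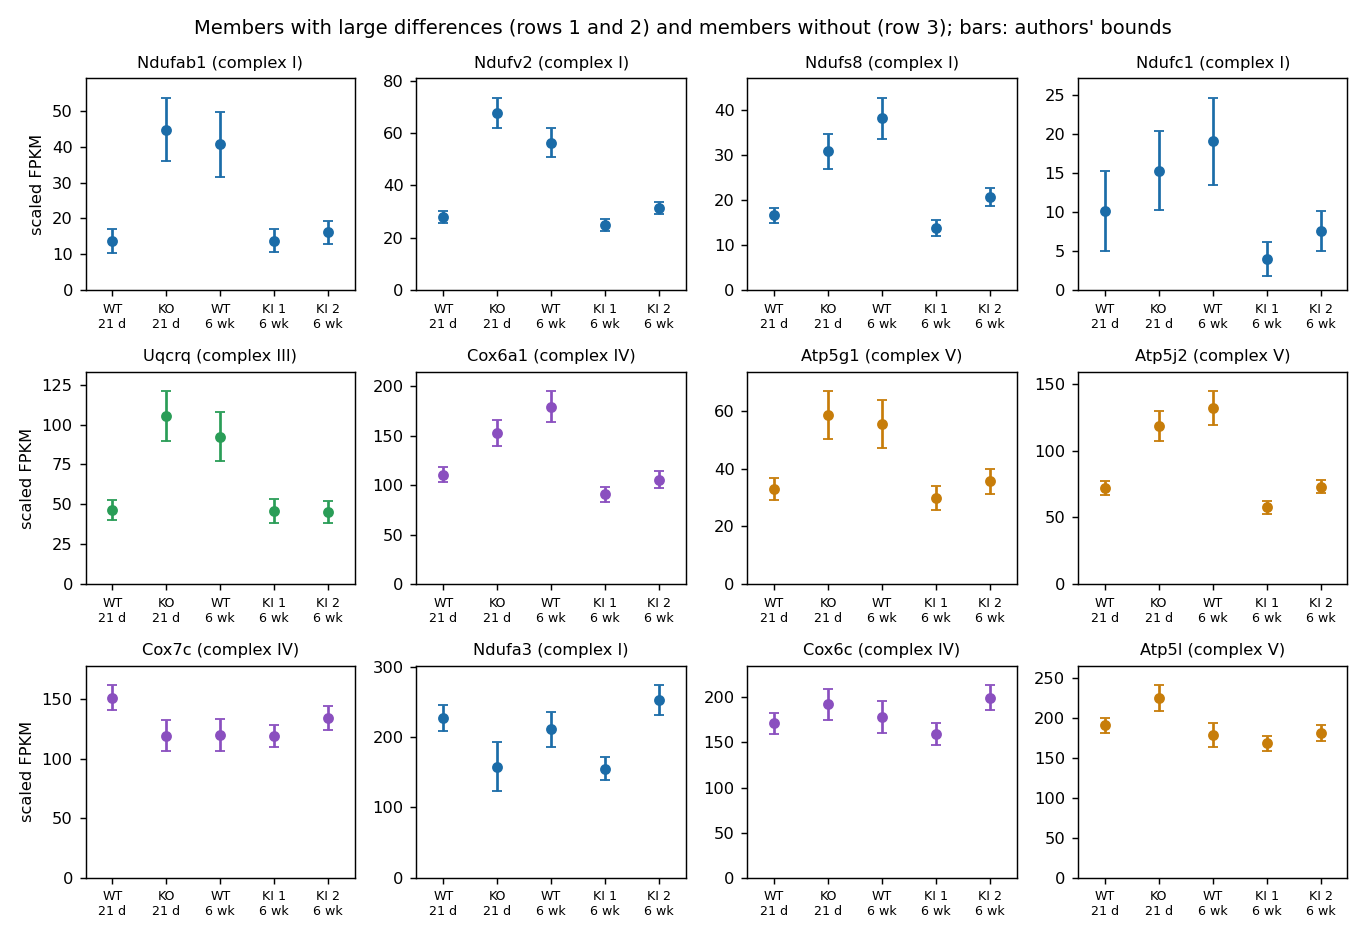
Scaled FPKM (y axis, from 0) of 12 members in each library (x axis); points are the values and bars the authors' lower and upper bounds, scaled alike. In the upper 2 rows WT at 6 weeks and KO are above the other 3 libraries; in the lowest row Cox7c, Ndufa3, Cox6c and Atp5l, chosen after their values were seen, are not.

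Complex V joins a catalytic F1 head to a membrane Fo rotor through stalks. Of its 15 members, 14 were below WT at 6 weeks in both KI libraries and 15 were above WT in KO. The shares of all tested genes were 38.0% and 51.1%. Median differences of the complex were -0.49 in KI and 0.41 in KO, and -0.85 and 0.78 by estimated fragments. The 5 genes of the F1 head had medians of -0.44 and 0.25, and the 10 of Fo and the stalks -0.56 and 0.44. Of the catalytic head, Atp5b, the beta subunit, had 251.3 and 293.6 scaled FPKM in WT by age, 307.9 in KO, and 251.1 and 245.4 in KI. Atp5a1, the alpha subunit, had 192.5, 240.4 and 223.3 in WT by age and KO, and 169.6 and 183.5 in KI. For both genes KI was the lower group at 6 weeks, by -0.24 and -0.44.

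Atp5g1, Atp5g2 and Atp5g3 encode the same mature subunit c of the rotor ring behind different import sequences, and their differences were not of one size. Atp5g1 had 33.0 and 55.5 in WT by age, 58.6 in KO, and 29.9 and 35.7 in KI, which placed KI at -0.75 (SE 0.24, limma adjusted p = 0.460) and KO at 0.81. Atp5g2 lay at -0.63 in KI and 0.67 in KO. Atp5g3, the most abundant of them, lay at -0.16 and 0.41, with 177.8, 197.0 and 236.7 in WT by age and KO, and 161.7 and 192.1 in KI. The 3 were not tested against each other. Atp5j2, subunit f of Fo, had 72.3 and 132.1 in WT by age, 118.5 in KO, and 57.5 and 73.3 in KI, or -1.01 in KI (SE 0.27, limma adjusted p = 0.453) and 0.71 in KO. Against WT at 6 weeks its KO value was lower, by -0.15. Atp5l, subunit g of Fo, lay at -0.03 in KI and 0.24 in KO.

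The 8 assembly and related genes were low and lay on the same side as the subunits in most libraries. Their medians were -0.38 in KI, 0.23 in KO and 0.33 between the WT libraries. For 0 of the 8 the authors' upper bound in both KI libraries lay under the lower bound in WT at 6 weeks (background 13.0%). In KO the lower bound lay over the upper bound of WT at 21 days for 1, Ndufaf1 (background 24.5%). Ndufaf1, an early assembly factor of the complex I membrane arm, had 4.81 and 9.03 scaled FPKM in WT by age, 8.49 in KO, and 4.11 and 6.56 in KI. Ndufaf3, which acts on the quinone module, had 4.03, 6.78 and 6.41 in WT by age and KO, and 3.59 and 5.25 in KI. Atp5sl, now placed among complex I assembly genes, was highest in KI replicate 1, at 18.7, and lowest in KI replicate 2, at 11.6.

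Promoters were examined because members of all complexes shared this order of libraries. RefSeq sequences (GRCm38.p6) of 300 bases, from 250 before to 50 after the transcription start, were found for 70 of the 84 members. The motif of nuclear respiratory factor 1 (NRF1), a known activator of respiratory genes, was searched as GCATGCGC on both strands. It was in 12 of the 70 members (17.1%), in 3.05% of all 27025 genes with a promoter and in 6.82% of the 7463 tested genes with one. The ETS motif CCGGAAG, bound by GABP, was in 24.3% of members, 9.93% of all genes and 22.9% of tested genes. The YY1 motif AAGATGGCG was in 11.4%, 1.64% and 4.23%, and the TATA box TATAAA in 7.14%, 15.7% and 7.88%. Both the NRF1 and the ETS letters were in 5 members, a count without a share of all or tested genes to set it against. Such matches are descriptions of letters and not evidence of binding. Members with the NRF1 letters had a median of -0.40 in KI and 0.29 in KO, and the 57 tested members without them -0.45 and 0.43. For the YY1 letters the split went the other way, with -0.63 and 0.54 in the 8 members that have them and -0.39 and 0.41 in the 61 without. For ETS it was -0.46 and 0.41 with and -0.40 and 0.42 without, and for TATA -0.14 and 0.24 in the 5 members with it and -0.45 and 0.42 without. These splits were not tested. Starts are those of RefSeq, and the Sdhb and Ndufab1 windows below lie partly inside the deposited loci of these genes. The deposited locus of Sdhb begins at 140961203 and that of Ndufab1 ends at 122101886. The windows shown first are, for complexes I, II, IV and V, those of the most abundant member with the NRF1 letters before its start. They are written 5′ to 3′ on the gene's strand, with the matched letters in capitals.
Ndufa6 (complex I, chr15:82354347-82354394, minus strand): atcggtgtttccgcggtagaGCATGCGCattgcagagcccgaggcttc
Sdhb (complex II, chr4:140961197-140961244, plus strand): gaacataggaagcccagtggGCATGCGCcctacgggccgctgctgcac
Cox6a1 (complex IV, chr5:115349093-115349140, minus strand): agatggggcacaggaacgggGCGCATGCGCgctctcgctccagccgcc
Atp5l (complex V, chr9:44920955-44920992, minus strand): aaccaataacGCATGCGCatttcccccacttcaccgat
In Cox6a1 the letters match on both strands and overlap. The 60 bases just before the start of Ndufab1, Ndufv2 and Ndufs8, complex I genes with large differences in both comparisons, hold none of the 4 motifs and are all in lower case. The 300-base promoter of Ndufs8 holds the ETS letters outside these 60 bases.
Ndufab1 (chr7:122101849-122101908, minus strand): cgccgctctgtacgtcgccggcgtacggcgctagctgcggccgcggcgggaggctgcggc
Ndufv2 (chr17:66101560-66101619, minus strand): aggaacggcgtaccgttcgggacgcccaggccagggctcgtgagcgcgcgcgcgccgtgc
Ndufs8 (chr19:3912775-3912834, minus strand): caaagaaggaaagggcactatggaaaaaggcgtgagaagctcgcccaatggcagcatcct

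Subunits encoded in the mitochondrial genome went the opposite way. All 13 of them were 1.5-fold or more lower in KO than in WT at 21 days, against 18.1% of all tested genes. Their median was -1.65 in KO, and WT at 6 weeks lay at -1.49 against WT at 21 days. In KI, 11 of 13 were above WT at 6 weeks in both libraries, against 36.6% of all tested genes. The medians were 1.13 in replicate 1 and 0.25 in replicate 2. mt-Co1, the catalytic subunit of complex IV, had 12874.9 and 4587.5 scaled FPKM in WT by age. It had 4088.5 in KO, and 9164.5 and 5220.2 in KI, so KI replicate 2 was nearer to the shallow libraries than to replicate 1. mt-Cytb, the cytochrome b of complex III, had 6810.8 and 2903.4 in WT by age, 2310.7 in KO, and 4029.7 and 2577.7 in KI, where the 2 replicates lay on either side of WT at 6 weeks.

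Lists of other nuclear genes for mitochondrial proteins were set beside the members, each by its median and counts. The 76 mitochondrial ribosomal proteins, which translate the mitochondrial messages, had medians of -0.45 in KI, 0.43 in KO and 0.34 between the WT libraries, with 59 below WT in both KI libraries (38.0% of all tested genes) and 71 above WT in KO (51.1% of all tested genes). The 42 tested assembly factors outside the name rule had -0.38, 0.39 and 0.23. The 18 genes of cytochrome c and coenzyme Q had -0.35, 0.27 and 0.32. Among them Cycs, cytochrome c, had 13.2 and 18.9 scaled FPKM in WT by age, 21.4 in KO, and 12.3 and 13.3 in KI. Cyc1, cytochrome c1 of complex III, which the name rule does not take, had 32.1, 43.3 and 39.3 in WT by age and KO, and 33.8 and 30.5 in KI.

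The other mitochondrial lists lay nearer to the median of all genes in KI, where the medians ran from -0.14 to 0.09, but not all did so in KO. The 19 genes of pyruvate dehydrogenase and the citric acid cycle had medians of -0.13 in KI, 0.08 in KO and 0.06 between the WT libraries. Cs, citrate synthase, had 48.2 and 53.4 in WT by age, 63.5 in KO, and 48.3 and 60.99 in KI. The 10 carriers of ATP, phosphate and metabolites had -0.14, 0.32 and 0.17, with the KO median above that of the cytochrome c and coenzyme Q genes. The 17 tested regulators of mitochondrial gene expression had 0.09, -0.19 and 0.05. Nrf1, which encodes NRF1, had 20.1 and 18.4 in WT by age, 17.0 in KO, and 16.3 and 16.3 in KI, with no order like that of the members. Tfam, which packages mitochondrial DNA and starts its transcription, had 20.5, 24.9 and 25.5 in WT by age and KO, and 17.98 and 20.4 in KI. The lists were not tested as sets. In limma 0 of their genes reached an adjusted p under 0.05, and at an unadjusted p under 0.05 the lower genes were 9 mitochondrial ribosomal proteins, 1 assembly factor and 1 gene of the citric acid cycle list, against 4.97% of all tested genes.

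**Figure D4:**
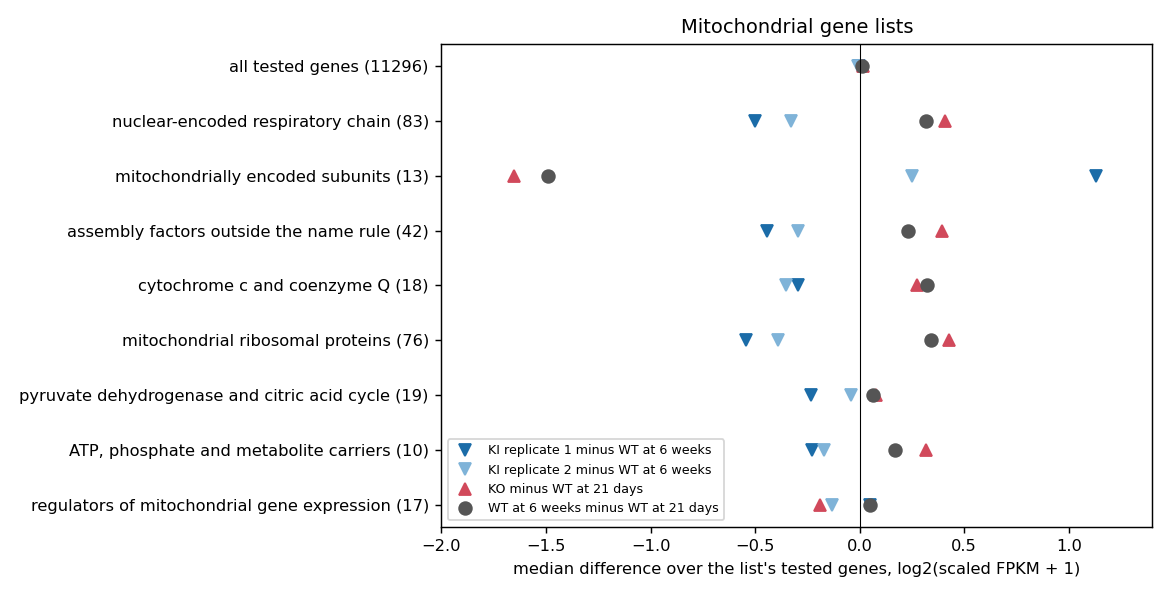
Median difference, in log2(scaled FPKM + 1) (x axis), over the tested genes of each mitochondrial list and over all tested genes (rows, with the number of genes). Triangles and circles are the comparisons named in the key; the nuclear-encoded respiratory chain lies below 0 in both KI libraries and above 0 in KO and in WT at 6 weeks, while the 13 mitochondrially encoded subunits lie on the other side in each.

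Many members are short transcripts, for which Cufflinks' length correction matters, and that correction differed between libraries. For genes with 1 transcript of 400 to 600 nt, the share of the length counted as usable, inferred from the bounds, was 64.1 and 83.8% in WT by age, 84.4% in KO, and 60.4 and 59.3% in KI. The 34 members whose longest transcript is under 1000 nt had medians of -0.42 in KI and 0.40 in KO, against -0.13 and 0.05 for all genes of that length. The 49 longer members had -0.40 and 0.42, against 0.00421 and 0.01. The members' medians were similar in the 2 classes, while those of all genes in KI were not. The classes use the longest annotated transcript of each gene, which need not be the one expressed. They therefore cannot separate short from long transcripts in use, and the part of the length correction was not tested.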

How the data were processed

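RNA of sorted Treg cells was sequenced in 5 libraries. Per the submitters' processing notes, the authors used CASAVA, HISAT2 2.1.0 and Cufflinks 2.2.1 on GRCm38; the order of steps, settings, strand and annotation release were not given in the sources used here. The deposited values are gene-level FPKM with lower and upper bounds, per the file headers. Genes that share reads with processed pseudogenes or close relatives are uncertain.

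Each library was scaled by its median ratio to the geometric mean of the libraries, over the 9874 genes that reach FPKM 1 in every library. Depth and fragments were estimated from the bounds, taken as 2 standard errors, and are approximate. Genes with a mean scaled FPKM of 1 or more were tested on log2(scaled FPKM + 1), a pseudocount of 1. KI and WT at 6 weeks were compared with limma 3.58.1 (R 4.3.3, trend, two-sided), threshold 0.05. Comparisons of 1 library with 1 are values without a test. limma was tested on simulated data of 11296 genes: in KI against WT it recovered 0, 0, 14 and 68% of 1.5-, 2-, 4- and 8-fold changes at the adjusted threshold, and 24, 64, 96 and 100% at the unadjusted one. Gene types and lengths came from GENCODE M21. All 84 member IDs were found there, 1 under another symbol.

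Named genes are, per complex, the 3 most abundant, the 2 highest and 2 lowest in KI and in KO, all Sdh genes and the isoform families; others named were chosen after their values were seen. Members and lists were chosen with earlier results of these data known. The alternatives covered scaling, pseudocount, filters, estimated fragments, transcript length, gene type, the limma trend, the control library and each KI replicate.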

Additional observations from a re-analysis of the deposited data

Results flagged for a closer look

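The members' medians lay on opposite sides of 0 in the 2 age-matched comparisons, over all members and in each of the 5 complexes and the assembly genes. The difference between the comparisons was not tested, since KO has 1 library, and the comparisons differ in age and in the Malt1 alleles. Over all members the median was 0.41 in KO against WT at 21 days, and -0.50 and -0.33 in KI replicates 1 and 2 against WT at 6 weeks. Complex I had 0.46 in KO, and -0.53 and -0.42 in KI. Complex II had 0.46, and -0.39 and -0.25. Complex III had 0.20, and -0.44 and -0.26. Complex IV had 0.21, and -0.43 and -0.12. Complex V had 0.41, and -0.56 and -0.35. The assembly genes had 0.23, and -0.43 and -0.33. Depth and the length correction divided the libraries in the same way, and their part was not tested.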

How the results depend on the processing

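With WT at 21 days as the control of KI, the members' median went from -0.40 to -0.0624, the count of members 1.5-fold or more lower from 15 to 0, and that at an unadjusted limma p under 0.05 from 12 to 0. With WT at 6 weeks as the control of KO, the median went from 0.41 to 0.0687 and the count 1.5-fold or more higher from 23 to 0. Under these controls some directions reversed: the KI median of the assembly genes (0.0229), Ndufaf1 (0.0985), Ndufab1 (0.107) and Cox7a2 (0.072) in KI, and the KO medians of complex III (-0.00949) and the assembly genes (-0.0995), and Ndufaf1 (-0.0799) and Atp5j2 (-0.155) in KO.

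FPKM as deposited moved the median of all genes by -0.26 in KI, 0.35 in KO and 0.35 between the WT libraries. The members then had -0.683 in KI, 0.775 in KO and 0.708 between the WT libraries, with counts at 1.5-fold of 30, 58 and 55 (17 in the last comparison as reported). Shares of all genes past the same thresholds under this and the other alternative settings are not given here. The counts of members in this section are therefore not set against a background. With fragments estimated from the bounds, the KI median was -0.548 and the WT median 0.449, the counts were 32, 37 and 33, 9 of 18 medians of single complexes shifted by more than the spread between KI replicates (complex III to -0.61, IV to -0.54 and V to -0.85 in KI, to 0.45, 0.62 and 0.78 in KO, and to 0.51, 0.49 and 0.74 between the WT libraries), and 25 members were lower at an unadjusted p under 0.05. Sdhc reversed there, to 0.317 in KI and -0.055 in KO. Members with a transcript of 1000 nt or more gave a KO count of 15, from fewer members. A pseudocount of 0.1 gave 1 member with an adjusted limma p under 0.05. Without either KI replicate the KI median ranged from -0.501 to -0.327 and its count from 20 to 29. The cause of these shifts was not tested, except where fewer members or samples entered. No paired analysis was possible because the labels give no replicate numbers that groups share. The estimated depth of 6.99 and 7.86 M in WT at 6 weeks and KO limits low members such as Cox6a2, Cox6b2 and the assembly genes.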
